A study of Mus musculus with 9 samples.

Results

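Vomeronasal type 1 receptors (V1Rs), encoded by the Vmn1r genes, were examined in RNA-seq of the main olfactory epithelium (MOE), the odor-sensing tissue of the nose. Members were all rows of the raw count table whose symbol is Vmn1r followed by a number and that held at least 1 read over the 9 libraries. This rule kept 157 of 208 Vmn1r rows, out of 24421 gene rows in all. The libraries came from whole MOE of 9 mice labelled as strain C57BL/6 at postnatal day 14, with 3 mice in each of 3 genotypes of 1 line that lacks TAAR enhancer 1, a noncoding element of the Taar receptor cluster. The genotypes were wild type (WT, both copies of the element intact), heterozygous (het, +/-) and homozygous (homo, -/-) for the deletion, which is a germline deletion and so not limited to 1 cell type. No other allele or agent is given in the labels. The study's reporting summary describes another age and a mixed background for mice of this line, and which of the descriptions holds for these libraries was not resolved.

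V1Rs are receptors coupled to G proteins that lie on the sensory neurons of the vomeronasal organ, which lies at the base of the nasal septum and detects pheromones and other cues from animals. Neurons in the apical layer of that organ express V1Rs together with the G protein subunit Gnai2, and neurons in the basal layer express type 2 receptors, the Vmn2r genes, together with Gnao1. Each V1R neuron expresses mainly a single receptor gene, so a whole-tissue library sums over cells that use different genes. Most MOE neurons use odorant receptors instead, and V1Rs are not their usual receptors. In bulk tissue, more cells of a type and more RNA per cell cannot be told apart.

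The libraries held 24583906 to 32631951 reads in genes, so 3 reads of a gene corresponded to 0.0916 to 0.122 CPM, a read count scaled to a common library size. Reads of Taar2 to Taar5, the genes near the deleted element, summed to 227, 337 and 238 in WT, to 176, 173 and 158 in het and to 3, 1 and 1 in homo mice, in the order of the genotype labels. All 7 markers of mature olfactory sensory neurons, the cells of the labelled tissue, were abundant in every library, and their summed level ranged from 6926 to 7713 CPM. The reads carry no molecular identifiers, so intervals and limits below cover counting error only.

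Many Vmn1r genes lie in arrays of close copies, which bears on how their reads can be counted. The 4 genes shown first illustrate the 51 Vmn1r rows without a read, and the 4 shown next are members whose values the results turn on. Each line gives the first 60 coding bases, from 5′ to 3′ on the strand of the gene, taken from GENCODE M21 on GRCm38. In the first set capitals mark bases that differ from Vmn1r107, and in the second set capitals mark the start codon.
Vmn1r107: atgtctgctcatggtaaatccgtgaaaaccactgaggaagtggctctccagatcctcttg
Vmn1r137: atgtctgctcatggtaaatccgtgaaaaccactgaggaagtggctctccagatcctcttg
Vmn1r148: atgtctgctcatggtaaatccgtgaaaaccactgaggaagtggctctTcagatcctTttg
Vmn1r118: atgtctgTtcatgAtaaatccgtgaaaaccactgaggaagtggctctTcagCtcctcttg
Vmn1r180: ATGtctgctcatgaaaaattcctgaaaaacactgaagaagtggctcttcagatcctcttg
Vmn1r21: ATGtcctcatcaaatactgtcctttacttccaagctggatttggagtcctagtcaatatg
Vmn1r89: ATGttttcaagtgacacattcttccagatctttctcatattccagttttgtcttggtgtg
Vmn1r37: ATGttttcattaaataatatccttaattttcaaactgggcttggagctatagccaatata

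These stretches lie at chr7:20668918-20668977 on the plus strand for Vmn1r107, chr7:21994587-21994646 (plus) for Vmn1r137, chr7:22413583-22413642 (plus) for Vmn1r148 and chr7:20912288-20912347 (minus) for Vmn1r118. The member stretches lie at chr7:23952414-23952473 (plus) for Vmn1r180, chr6:57844398-57844457 (minus) for Vmn1r21, chr7:13219339-13219398 (plus) for Vmn1r89 and chr6:66731392-66731451 (plus) for Vmn1r37. Vmn1r137 had the same 60 bases as Vmn1r107 and differed from it at 1 of 921 coding bases, while Vmn1r148 differed at 19. Vmn1r180, a member from the same chromosome 7 array, differed from Vmn1r107 at 7 of the 60 bases shown.

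The share of each transcript that is unique was counted over stretches of 100 bases of its longest GENCODE transcript, searched in all annotated transcripts. Of the 51 rows without a read, 49 were matched, and the median share of unique stretches was 10.26%, with 18 rows at 0% and 37 under 50%. For the 157 members the median was 99.3%, 127 members were over 90% and 9 were under 50%. Reads that map to more than one place stand in a separate row of the count table and were not given to a gene. Of the rows without a read, 4 were over 90% unique and 7 over 75%, so little unique sequence was not shared by all of them, and its part in the lack of reads was not tested.

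**Figure D1:**
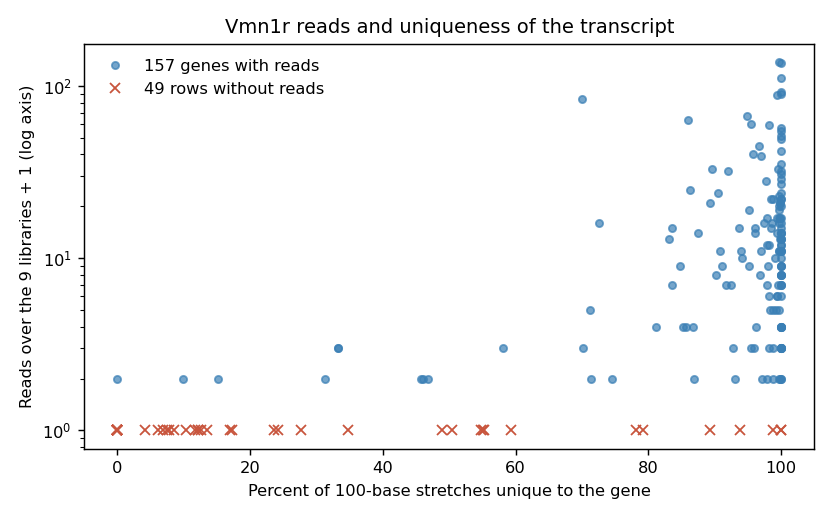
Reads of each Vmn1r gene over the 9 libraries, plus 1 and on a log axis, against the percent of 100-base stretches of its transcript that occur in no other gene. Each blue point is 1 of the 157 members and each red cross 1 of the 49 matched rows without a read. Most members lie at the right edge, and 37 of the rows without a read lie below 50%.

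Vmn1r reads were few, and most of them came from 3 libraries of different genotypes. The 157 members had 2705 reads in all. Their reads summed to 85, 78 and 64 in WT replicates 1 to 3, to 621, 76 and 87 in het replicates 1 to 3, and to 74, 1026 and 594 in homo replicates 1 to 3. Het 1, homo 2 and homo 3 together held 82.8% of all Vmn1r reads. Het 2, het 3 and homo 1 were within the range of the WT libraries in CPM, so neither the het nor the homo libraries agreed among themselves.

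Summed Vmn1r expression was 2.76 ± 0.57 CPM (SD, n = 3) in WT, 9.31 ± 11.1 CPM (SD, n = 3) in het and 22.4 ± 19.5 CPM (SD, n = 3) in homo mice. The WT libraries ranged from 2.38 to 3.41 CPM, the het libraries from 2.87 to 22.1 CPM and the homo libraries from 2.61 to 41.7 CPM. The ranges of the 3 genotypes overlapped, and the SD was larger than the mean in het mice. Without het 1 the het mean was 2.91 CPM, and without homo 2 the homo mean was 12.8 CPM. No test was applied to the sum, since the members were chosen with earlier results of these data known.

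**Figure D2:**
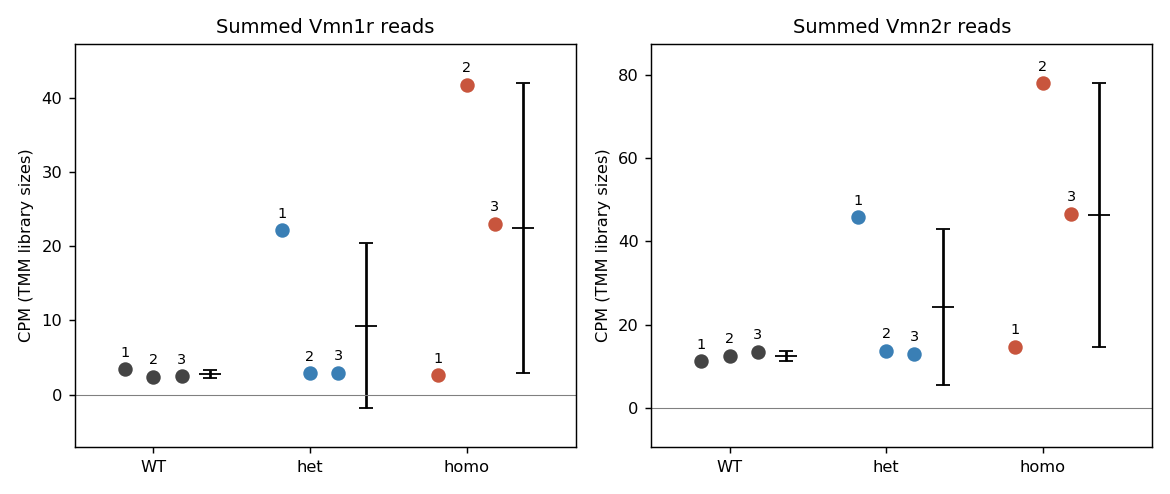
Summed CPM of Vmn1r genes (left) and of Vmn2r genes (right) in each library, scaled by TMM library sizes. Points are libraries, numbered by replicate, and black bars give the mean and SD of the 3 libraries of a genotype. Het 1, homo 2 and homo 3 lie above the other 6 libraries in both panels.

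More receptor genes were seen in the libraries with more reads. At least 1 read was present for 19, 26 and 23 members in WT replicates 1 to 3, for 114, 34 and 27 in het replicates 1 to 3 and for 28, 127 and 123 in homo replicates 1 to 3. Of the 157 members, 118 had no read in any WT library, and 90 had reads only in het 1, homo 2 or homo 3. In contrast, 5 members had reads but none in those 3 libraries. Reads of 93 members were found in each of het 1, homo 2 and homo 3, and 45 of these had none in any other library. Reads in 1 library only were found for 34 members, 30 of them in het 1, homo 2 or homo 3, and these members had at most 4 reads, with 18 at a single read.

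The pattern over genes also differed between libraries. The 5 most counted members held 65.9%, 46.2% and 56.2% of Vmn1r reads in WT replicates 1 to 3, but 18.4% in het 1, 24.1% in homo 2 and 22.2% in homo 3. In het 2, het 3 and homo 1 the same share was 38.2%, 52.9% and 52.7%. Thus the reads were spread over more genes where there were more of them. With few reads, a larger share of the most counted members and fewer genes seen follow in part from the number of reads alone. Across the 157 members, the Pearson correlation of log2(CPM + 0.1) was 0.628 to 0.786 for the 3 pairs among het 1, homo 2 and homo 3, and 0.472 to 0.811 for the 15 pairs among the other 6 libraries. The 18 mixed pairs gave 0.155 to 0.375. These values are across genes, which are not independent replicates, and libraries with few reads share many genes at 0.

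Vmn1r89 had the most reads of any member and followed the summed level closely. It encodes a receptor known to respond to sulfated steroids in female mouse urine, and lies on the plus strand of chromosome 7 from 13213020 to 13220657. It had 0, 1 and 0 reads in WT replicates 1 to 3, 32, 1 and 0 reads in het replicates 1 to 3 and 1, 67 and 34 reads in homo replicates 1 to 3. Het 1, homo 2 and homo 3 were high and the other 6 libraries held at most 1 read each, so homo overlapped WT through homo 1. Vmn1r89 made up 5.15% (95% exact interval 3.55 to 7.20%) of Vmn1r reads in het 1, 6.53% (5.10 to 8.22%) in homo 2 and 5.72% (4.0 to 7.91%) in homo 3. The 3 intervals overlapped.

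Vmn1r37 and Vmn1r27, on chromosome 6, and Vmn1r184, on chromosome 7, had no read in WT mice. Vmn1r37 had 19, 2 and 0 reads in het replicates 1 to 3 and 0, 42 and 20 reads in homo replicates 1 to 3. Against a limit of 3 reads in each WT library, its mean in homo mice was at least 7.56-fold higher. For Vmn1r27 there were 11, 0 and 0 reads in het and 0, 29 and 26 reads in homo replicates 1 to 3, at least 6.66-fold higher in homo than in WT mice on the same limit. All of its reads fell in het 1, homo 2 and homo 3. Vmn1r184 had 11, 3 and 1 reads in het and 0, 30 and 13 reads in homo replicates 1 to 3, at least 5.25-fold higher in homo mice. In each of these genes homo 1 had 0 reads, as WT had, so the fold rests on homo 2 and homo 3.

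Vmn1r32, Vmn1r51 and Vmn1r71 were present at low counts outside the 3 libraries. Vmn1r32 had 2, 1 and 1 reads in WT, 16, 2 and 7 in het and 6, 41 and 12 in homo replicates 1 to 3, and every homo library was above every WT library. Ratios of homo to WT were taken here on reads pooled over the libraries of each genotype and scaled by TMM library sizes. For Vmn1r32 the ratio was 15.6 (95% counting interval 5.79 to 59.2). Vmn1r51 had 0, 6 and 1 reads in WT, 15, 1 and 0 in het and 1, 44 and 23 in homo replicates 1 to 3. Its ratio was 10.29 (4.73 to 26.6), with homo 1 inside the WT range. Vmn1r71 had 0, 2 and 6 reads in WT, 18, 10 and 6 in het and 0, 53 and 15 in homo replicates 1 to 3. The ratio for Vmn1r71 was 9.0 (4.32 to 21.7), and here het 2 was also above every WT library. These intervals take reads as the unit and leave out the spread between mice. Between homo and WT mice, adjusted p was 0.273 for Vmn1r32, 0.423 for Vmn1r51 and 0.422 for Vmn1r71 (edgeR's quasi-likelihood test, Benjamini-Hochberg adjusted). GENCODE places Gm20426 over Vmn1r51 on the other strand and Gm5130 over Vmn1r71, and the strand setting of the counting is not given in the sources used here. Reads from where these genes overlap may thus have been counted for the Vmn1r gene or left out.

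A smaller group of members was counted in every library. Reads were present in all 9 libraries for 7 members: Vmn1r21, Vmn1r228, Vmn1r32, Vmn1r199, Vmn1r233, Vmn1r178 and Vmn1r171. Together these 7 genes summed to 1.97, 1.13 and 1.31 CPM in WT, to 3.03, 0.983 and 1.45 CPM in het and to 1.16, 4.96 and 2.44 CPM in homo replicates 1 to 3. The other 150 members summed to 1.45, 1.25 and 1.16 CPM in WT, to 19.1, 1.89 and 1.49 CPM in het and to 1.44, 36.7 and 20.5 CPM in homo replicates 1 to 3. The 7 genes thus made up 57.6%, 47.4% and 53.1% of Vmn1r reads in WT but 13.7% in het 1, 11.9% in homo 2 and 10.61% in homo 3. Since the 7 were chosen for having reads in libraries with few reads, a larger share there follows in part from the choice.

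**Figure D3:**
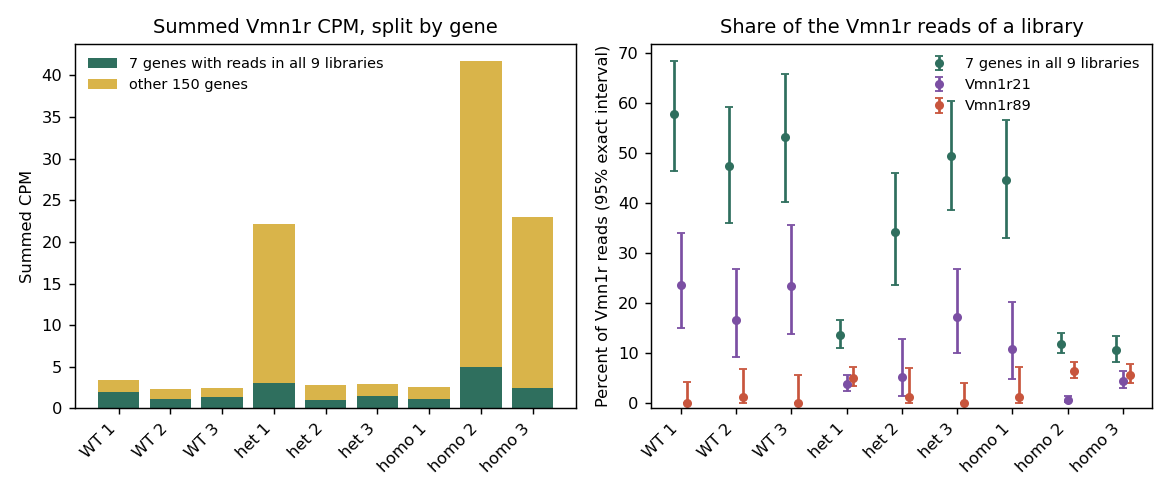
Left, summed Vmn1r CPM in each library, split into the 7 genes with reads in all 9 libraries and the other 150 genes. Right, the percent of Vmn1r reads of a library that came from the 7 genes, from Vmn1r21 and from Vmn1r89, with 95% exact binomial intervals. The 7 genes made up 34.2% or more in 6 libraries and 13.7% or less in het 1, homo 2 and homo 3.

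Vmn1r21 was the most counted member in each WT library. The gene lies on the minus strand of chromosome 6 from 57842830 to 57850343, and its transcript was fully unique over 100-base stretches. It had 20, 13 and 15 reads in WT, 24, 4 and 15 in het and 8, 8 and 27 in homo replicates 1 to 3, with overlap of all genotypes. Vmn1r21 took 23.5% of Vmn1r reads in WT 1 and 0.780% in homo 2, the library with the most Vmn1r reads. Its correlation with the sum of the other members over the 9 libraries was 0.319, against 0.987 for Vmn1r89. The log2 fold change of homo against WT was -0.09 (SE 0.57), with an adjusted p of 0.983 in edgeR's quasi-likelihood test with Benjamini-Hochberg adjustment. Gm44114 is annotated over Vmn1r21, and reads from where they overlap may have been counted for Vmn1r21 or left out.

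Vmn1r180 was the member that followed the others least. It lies on the plus strand of chromosome 7 from 23950632 to 23955691, and its correlation with the sum of the other members was -0.631. It had 14, 6 and 4 reads in WT, 5, 3 and 10 in het and 10, 0 and 4 in homo replicates 1 to 3. Homo 2, highest in the summed level, was the library without a Vmn1r180 read. It took 16.5% of Vmn1r reads in WT 1, 11.5% in het 3 and 13.5% in homo 1, and 0.805% in het 1. The log2 fold change of homo against WT was -0.73 (SE 0.81, adjusted p = 0.844 by edgeR's quasi-likelihood test with Benjamini-Hochberg adjustment), smaller than its standard error.

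Vmn1r228, Vmn1r199 and Vmn1r233 were also among the 5 members with the highest WT level. Vmn1r228, on chromosome 17, had 8, 5 and 8 reads in WT, 19, 4 and 8 in het and 3, 30 and 4 in homo replicates 1 to 3. In CPM, homo 2 was above every WT library and homo 1 below every WT library, and its log2 fold change of homo against WT was 0.90 (SE 0.80). For Vmn1r233, from the same array on chromosome 17, there were 9, 4 and 3 reads in WT, 8, 3 and 4 in het and 2, 11 and 6 in homo replicates 1 to 3, with a log2 fold change of 0.32 (SE 0.72) and overlapping groups. Vmn1r199, on chromosome 13, had 4, 5 and 3 reads in WT, 14, 2 and 4 in het and 11, 10 and 9 in homo replicates 1 to 3. Its homo libraries lay close together, at 0.381 ± 0.0297 CPM (SD, n = 3) against 0.143 ± 0.0238 CPM (SD, n = 3) in WT, with no overlap. Its log2 fold change was 1.38 (SE 0.65), which did not pass the test over all genes (adjusted p = 0.542 in edgeR's quasi-likelihood test with Benjamini-Hochberg adjustment). The pseudogene Vmn1r-ps102 is annotated over Vmn1r199 on the same strand, so reads from where they overlap may have been counted for Vmn1r199 or left out.

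Vmn1r178 and Vmn1r171, both from the chromosome 7 array that holds Vmn1r180, had 1 to 12 reads per library. Vmn1r178 had 3, 6 and 3 reads in WT, 2, 6 and 2 in het and 1, 12 and 3 in homo replicates 1 to 3. Vmn1r171 had 3, 3 and 1 reads in WT, 2, 5 and 3 in het and 2, 10 and 2 in homo replicates 1 to 3. For both genes homo 2 was the highest library and het 2 the next, while het 1 held 2 reads. Their correlations with the sum of the other members were 0.391 and 0.44.

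**Figure D4:**
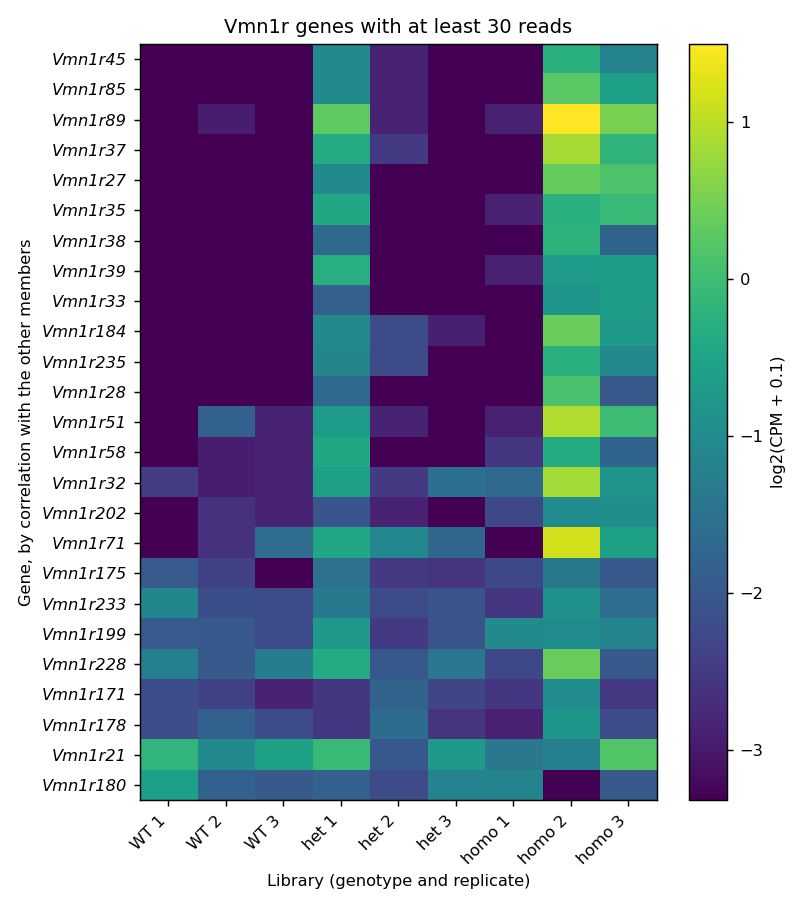
Expression of the 25 Vmn1r genes with at least 30 reads in each library, as log2(CPM + 0.1) on the colour scale. Genes are ordered from the highest to the lowest correlation with the sum of the other members. The upper genes are bright only in het 1, homo 2 and homo 3, while Vmn1r21 and Vmn1r180 at the bottom are bright in WT libraries too.

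Placed on GRCm38 and joined where neighbours lie within 1000000 bases, the Vmn1r rows formed arrays whose values differed. A run of 8 members on chromosome 6 from 66552180 to 66810609, which holds Vmn1r32 and Vmn1r37, had 376 reads, 93.9% of them in het 1, homo 2 and homo 3. Its sum was 0.0803, 0.0305 and 0.0387 CPM in WT, 3.53, 0.151 and 0.237 CPM in het and 0.282, 6.58 and 3.56 CPM in homo replicates 1 to 3. The 23 members on chromosome 7 from 10272991 to 13220657, with Vmn1r71 and Vmn1r89, had 499 reads, the most of any array, and 92.2% of them lay in the same 3 libraries. This array summed to 0.0803, 0.0916 and 0.232 CPM in WT, 4.31, 0.529 and 0.372 CPM in het and 0.106, 9.51 and 4.06 CPM in homo replicates 1 to 3. In both arrays homo 1 was far below homo 2 and homo 3, and in the array on chromosome 7 it lay within the WT range.

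The array on chromosome 7 from 20099680 to 24063554 differed in both respects. It held 65 Vmn1r rows, of which 41 had no read, and its rows were on median 15.2% unique. Its 24 members had 237 reads, of which 46.4% lay in het 1, homo 2 and homo 3. The sum was 1.00, 0.733 and 0.541 CPM in WT, 0.997, 0.643 and 0.812 CPM in het and 0.810, 1.87 and 1.39 CPM in homo replicates 1 to 3. Het 1, with 22.1 CPM over the family, was within the WT range here, while homo 2 and homo 3 were above every other library. Vmn1r180, Vmn1r178 and Vmn1r171 belong to this array, and so does Vmn1r181, with 1, 2 and 3 reads in WT, 1, 0 and 4 in het and 1, 0 and 1 in homo replicates 1 to 3, a gene chosen after its values were seen.

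Other arrays lay between these. On chromosome 6 from 56924015 to 58475330, 27 members including Vmn1r21 and Vmn1r27 had 438 reads, 75.1% of them in the 3 libraries. On chromosome 17 from 20414146 to 21314912, 14 members had 310 reads and 76.5% in the 3 libraries. The 32 members on chromosome 13 from 22084440 to 23253906 had 415 reads and 87.5%, and the 15 members on chromosome 6 from 89707540 to 90271213, with Vmn1r51, had 223 reads and 91.9%. The arrays with the lower shares hold Vmn1r21, Vmn1r228 and Vmn1r233, which had reads in every library. Vmn1r32 and Vmn1r199 also had reads in every library, and their arrays had shares of 93.9% and 87.5%. Of the remaining members, 10 on chromosome 7 from 5129291 to 6011010 had 107 reads (86.0% in the 3 libraries), 2 on chromosome 7 from 26260334 to 26618464, with Vmn1r184, had 85 reads (91.8%), Vmn1r1 on chromosome 1 had 14 reads, all in the 3 libraries, and Vmn1r3 on chromosome 4 had a single read, in het 2. These shares are descriptions, and no difference between arrays was tested.

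**Figure D5:**
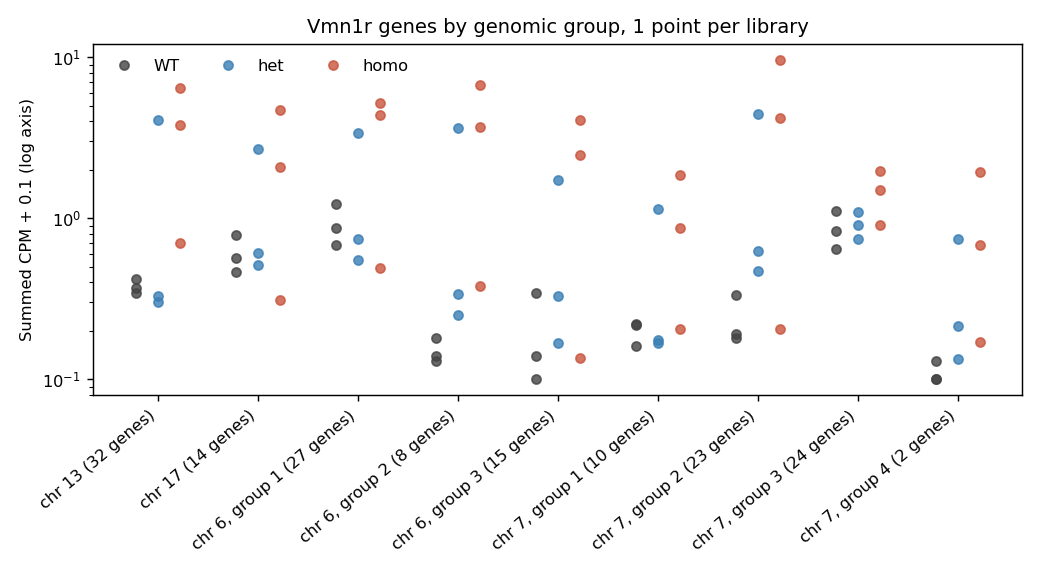
Summed CPM plus 0.1, on a log axis, of the Vmn1r genes of each array with at least 50 reads, with 1 point per library coloured by genotype. In the array labelled chromosome 7, group 3 (24 genes) the points of all genotypes lie between 0.541 and 1.87 CPM before 0.1 is added. There 2 homo points are the highest, and in the other arrays 1 het and 2 homo points stand above the rest.

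To ask whether loss of the enhancer changed V1R expression, each gene was compared between genotypes across all 20213 genes with at least 10 reads, of which 81 were members. The other 76 members had fewer than 10 reads and were left out by this filter. Fitted without it, edgeR also called 0 of the 157 members, with 55, 15 and 9 at an unadjusted p under 0.05 for homo against WT, het against WT and homo against het (35.0%, 9.55% and 5.73% of members against 8.70%, 3.17% and 9.67% of all genes). edgeR's quasi-likelihood test with Benjamini-Hochberg adjustment called 0 of the 81 members between homo and WT mice, where 0.0495% of all genes were called. It called 0 members between het and WT mice (0.00495% of all genes) and 0 between homo and het mice (0.114% of all genes). At an unadjusted p under 0.05 there were 46 members between homo and WT, or 56.8% of those tested against 9.26% of all genes, 8 between het and WT (9.88% against 3.25%) and 6 between homo and het (7.41% against 10.42%). DESeq2 also called 0 members, where it called 0.295%, 0.0136% and 0.553% of all genes for homo against WT, het against WT and homo against het, with 19, 4 and 3 of 157 members at an unadjusted p under 0.05 (12.1%, 2.55% and 1.91% of members against 6.52%, 1.76% and 7.69% of all genes). Its limit on low counts left all members without an adjusted p for homo against WT and for homo against het.

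The 81 members passed a filter on reads summed over all libraries, and most passed it through libraries in which they were high: 12 had at least 10 reads in the 6 libraries other than het 1, homo 2 and homo 3, and 6 had at least 10 reads in the WT libraries. Counts over the 81 therefore describe members picked in part for being high, and do not speak for all 157. Vmn1r32 had the lowest adjusted p between homo and WT mice, with a log2 fold change of 3.88 (SE 0.95, adjusted p = 0.273 by edgeR's quasi-likelihood test with Benjamini-Hochberg adjustment). For 10 of the 81 members every homo library was above every WT library, or 12.3% against 7.46% of all genes. The count was 1 of 81 for het above WT, against 4.36% of all genes, and 1 of 81 for homo above het, against 6.41%. In 78 of the 81 members the highest library was homo 2 (49 members), homo 3 (17 members) or het 1 (12 members).

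The counts changed with the libraries left out. Leaving out het 1, homo 2 and homo 3 removes the libraries with the most Vmn1r reads and leaves homo 1 as the only homo library, assumed to vary like the others, so a smaller difference was fixed by the choice and is no test of it. There, 12 members were left with at least 10 reads, and 0, 0 and 1 of these had an unadjusted p under 0.05 for homo against WT, het against WT and homo against het, against 5.01%, 3.27% and 4.42% of all genes. After adjustment 0 members were called there, against 0.0457%, 0.00508% and 0.0305% of all genes in the 3 comparisons. Without homo 2 alone, 15 of 48 members tested (31.2%, against 9.75% of all genes) were under 0.05 unadjusted between homo and WT mice, and without homo 1 alone 55 of 80 were (68.8%, against 8.66%). Without het 1, 0 of 58 members tested were under 0.05 between het and WT mice, against 2.87% of all genes, and 35 of 58 (60.3%, against 7.74%) between homo and het mice. Het 1 (621 reads) and homo 2 (1026 reads) held most Vmn1r reads of their genotypes, so leaving either out moved these counts by the choice. Homo 1 had the fewest of the homo libraries, so leaving it out did so too. The members tested also changed, since the filter used the libraries that remained. These counts describe the weight of single libraries and are no test of genotype. In each of these fits edgeR called 0 members after adjustment.

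Other genes of the vomeronasal organ were looked at beside the V1Rs. Vmn2r genes, the type 2 receptors, summed to 11.2, 12.5 and 13.5 CPM in WT, to 45.7, 13.6 and 13.1 CPM in het and to 14.7, 77.9 and 46.5 CPM in homo replicates 1 to 3. The same 3 libraries were high for both receptor families. Vmn1r reads made up 32.6% (95% exact interval 30.5 to 34.8%) of Vmn1r and Vmn2r reads in het 1, 34.9% (33.1 to 36.6%) in homo 2 and 33.1% (30.9 to 35.3%) in homo 3. In the other 6 libraries the share was 15.1% to 23.4%, the highest being WT 1 (19.2 to 28.1%), whose interval did not reach those of the 3 libraries. Of 98 Vmn2r genes tested, 0 were called in any of the 3 comparisons by edgeR's quasi-likelihood test, with 72, 11 and 6 under an unadjusted p of 0.05, where 9.26%, 3.25% and 10.42% of all genes were. The 98 passed the same filter on reads summed over all libraries. Reads were found for 108, 115 and 108 Vmn2r genes in het 1, homo 2 and homo 3. The count was 35 to 47 in the other 6 libraries. Counts over the 98 therefore describe genes picked in part for being high in those 3 libraries.

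Of 45 further genes listed as markers of vomeronasal neurons, nasal glands or cells of the MOE, 41 had a row, 36 were tested and 0 were called in any comparison. Among genes of basal vomeronasal neurons, Tfap2e, a transcription factor of those cells, had 0, 7 and 0 reads in WT, 20, 2 and 0 in het and 0, 28 and 21 in homo replicates 1 to 3. H2-M10.1, a nonclassical MHC gene coexpressed with type 2 receptors, had 0, 1 and 0 reads in WT, 9, 0 and 0 in het and 0, 19 and 6 in homo replicates 1 to 3. The formyl peptide receptor genes Fpr3 and Fpr-rs3, used by other vomeronasal neurons, had 3 and 7 reads in het 1, 6 and 5 reads in homo 2, 3 and 6 reads in homo 3, and 0 reads in the other 6 libraries. Other genes of these lists had another pattern: Fpr-rs6 had 3 reads in WT 3, 1 each in het 2 and het 3, 5 in homo 2 and 0 in the other 5 libraries, and H2-M9 had 7 reads in homo 1 and at most 3 in any other library. Fpr-rs4 and H2-M11 had 1 read each, in het 1. H2-M10.2, H2-M10.3 and H2-M10.6 had reads in every library. In CPM, H2-M10.3 and H2-M10.6 were highest in het 1, homo 2 and homo 3. H2-M10.2 was higher in het 2 (0.832 CPM) than in het 1 (0.819 CPM). All 10 tested genes of the type 2 list were fitted higher in homo than in WT mice. Of these, 9 had an unadjusted p under 0.05 in edgeR's quasi-likelihood test, where 9.26% of all genes did. Several, such as H2-M10.1, passed the filter mainly through het 1, homo 2 and homo 3. The olfactory sensory neuron list had 6 of 7 fitted higher with 3 under 0.05, and the septal cartilage list 3 of 3 with 2. The sustentacular cell list had 1 of 4 fitted higher and the ciliated cell list 0 of 3, each with 1 under 0.05.

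Markers that V1R neurons share with cells of the MOE differed in how far they varied, and Meis2 varied most in proportion to its level. Gnai2, the G protein subunit of V1R neurons, ranged from 133 to 148 CPM and Gng8, another G protein subunit, from 53.2 to 66.8 CPM over the 9 libraries. The transcription factor gene Meis2 was at 32.1 CPM in het 1, 38.2 CPM in homo 2 and 31.761 CPM in homo 3, and at 24.3 to 31.758 CPM in the other 6 libraries, so homo 3 was barely above het 2. The channel gene Trpc2, which vomeronasal neurons need for signalling, was listed at 0 in all 9 libraries, where GENCODE has a read-through gene, Xntrpc, over it. The summed list of olfactory sensory neuron markers was 6926 to 7003 CPM in WT, 6981 to 7470.3 CPM in het and 7169 to 7713 CPM in homo libraries. Lcn3 and Lcn4, lipocalins of nasal glands, summed to 539 CPM in het 1 but to 211 CPM in homo 2 and 181 CPM in homo 3, inside the WT range of 176 to 301 CPM. Over all 9 libraries the sustentacular cell list summed to 2883 to 3251 CPM and the ciliated cell list to 227 to 349 CPM. The septal cartilage list summed to 45.6 to 63.3 CPM, highest in homo 1, and the immune gene Ptprc was at 6.03 to 8.80 CPM, highest in het 1. The list of the V1R lineage as a whole, of which 1 of 4 genes was at 0, summed to 234 CPM in het 1, 242 CPM in homo 2 and 241 CPM in homo 3 and to 218 to 232 CPM in the other 6 libraries. Its ranges by genotype were 228 to 232 CPM in WT, 218 to 234 CPM in het and 227 to 242 CPM in homo libraries. The list of the type 2 lineage, which Gnao1 dominates, summed to 376 to 394 CPM in WT, 379 to 397 CPM in het and 419 to 438 CPM in homo libraries. It did not set het 1, homo 2 and homo 3 apart. Het 1, at 390 CPM, was inside the WT range, and homo 1, at 421 CPM, was above homo 2, at 419 CPM. Hbb-bs and Hba-a1, the haemoglobin genes of blood, were listed at 0. Whether vomeronasal tissue was present in the samples was not tested, and it cannot be told apart from V1R expression by cells of the MOE in these libraries.

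The genes outside both receptor families whose log2(CPM + 0.1) was most like that of the summed Vmn1r level over the 9 libraries were H2-M10.5 (r = 0.979), H2-M10.1 (0.971), Calr4 (0.97), H2-M1 (0.966), Ier2 (0.963), Ifne (0.963), Bmp7 (0.961), Ankrd63 (0.95), Vil1 (0.95) and Gm7534 (0.938). Of these, 3 are nonclassical MHC genes from the list above. Calr4, a chaperone of the calreticulin family, had 83, 93 and 59 reads in WT, 237, 76 and 72 in het and 111, 350 and 222 in homo replicates 1 to 3. Vil1, which encodes the microvillus protein villin, had 16, 20 and 15 reads in WT, 65, 26 and 10 in het and 12, 105 and 93 in homo replicates 1 to 3. Both were highest in homo 2, followed by homo 3 and het 1. Ier2, an immediate early gene, and Bmp7, a growth factor, were far more abundant and moved little, from 28.0 to 33.3 CPM and from 29.2 to 35.5 CPM. These correlations are descriptions chosen as the highest of all genes.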

How the data were processed

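RNA was extracted from whole MOE, and polyA-selected, directional libraries were sequenced. The submitters' processing notes name Trimmomatic 0.36, HISAT2 2.1.0, HTSeq 0.6.1p1, DESeq2 1.20.0 and the mouse genome mm10 (GRCm38), whereas the methods of the study name featureCounts. The gene annotation and strand setting are not given in the sources used here. The deposited table holds raw read counts per gene. A second table, these counts divided by the authors' size factors, was not used.

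The 5 summary rows were left out. Genes with at least 10 reads over the 9 libraries were fitted with edgeR 4.0.16 (R 4.3.3; TMM, quasi-likelihood, genotype as the only term, 6 residual degrees of freedom), Benjamini-Hochberg adjusted over all genes tested, at a threshold of 0.05. The fit was tested on simulated data. CPM values use TMM library sizes. Alternatives were DESeq2 size factors, DESeq2 1.42.0, other filters on low counts, a replicate block, only the 6 libraries compared, each library left out and other sums; leaving out 3 libraries was chosen after seeing the data. The study describes the mice as littermates, and which mice shared a litter is not given in the sources used here, so p-values measure the spread between these mice.

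Members and lists were chosen with earlier results of these data known. Named members were the 10 with the highest mean CPM, the 5 highest in WT, any called, the 5 with at least 30 reads that correlated least with the sum of the other members, and the 5 most counted of those with reads in every library. Up to 10 other genes most like the sum and 9 marker lists were added. Coordinates, overlaps and coding sequences were read from GENCODE M21. All 157 members were matched by symbol. Promoter windows of RefSeq were not printed, since 112 of 136 member windows start at an ATG, against 5.83% of all windows.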

Additional observations from a re-analysis of the deposited data

How the results depend on the processing

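edgeR and DESeq2 called 0 members in each comparison under every alternative run. DESeq2 gave no member an adjusted p for homo against WT or for homo against het, so it could call none there. The lowest adjusted p of any member over the alternatives that gave one was 0.0899 between homo and WT, 0.192 between homo and het and 0.979 between het and WT mice. With 1 library left out, the summed mean ranged from 2.43 to 2.94 CPM in WT, 2.91 to 12.5 CPM in het and 12.8 to 32.3 CPM in homo mice. Without het 3, edgeR called 33 genes between homo and WT and 190 between homo and het mice, none of them a member. DESeq2 called 65, 3 and 122 genes, and with only the 6 libraries compared edgeR called 47, 0 and 11, for homo against WT, het against WT and homo against het. Fitted without a filter on low counts, the third comparison had 50 calls.

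Deviations of libraries with the same replicate number correlated at -0.213 to 0.0916. These values cannot tell whether the numbers mark litters or batches, which the labels do not give. With the replicate block, 0 members and 12, 0 and 41 genes were called in the same order of comparisons.

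Of 6 members whose log2 fold change of homo against WT was followed, Vmn1r32 and Vmn1r199 kept their direction, at 2.04 to 4.34 and 1.26 to 1.46. With 1 library left out, Vmn1r21 ranged from -0.942 to 0.238 (above 0 without WT 1, homo 1 or homo 2), Vmn1r180 from -1.83 to 0.039 (above 0 without WT 1), Vmn1r228 from -0.955 to 1.40 and Vmn1r233 from -0.375 to 1.01 (both below 0 without homo 2). Without het 1, homo 2 and homo 3, chosen after seeing the data for their many Vmn1r reads, homo 1 was the only homo library, and there Vmn1r180 was at 0.267, Vmn1r228 at -1.24 and Vmn1r233 at -1.41, which is no test of these genes. None of these had an adjusted p below the threshold, and the cause was not tested. Depth limits the 76 members under 10 reads most, since 3 reads equal about 0.1 CPM.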
